A study of Mus musculus with 26 samples.

Results

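The Ly6 genes encode small, cysteine-rich surface proteins, most of them held in the membrane by a lipid (GPI) anchor. They were followed through 5 ages in the lacrimal gland, the source of the aqueous layer of tears. The 9 genes considered were Ly6f, Ly6e, Ly6i, Ly6a, Ly6c1, Ly6d, Ly6g, Ly6h and Ly6k. Every probe set annotated to 1 of them alone was taken, which gave 8 of the 45101 probe sets on the array, for 6 of the 9 genes. Ly6a and Ly6g are not listed in the annotation used here, and Ly6c1 is listed only on a probe set that it shares with Ly6c2. The family was chosen by the large difference in measured Ly6f expression between ages on these same arrays, so the values of Ly6f between ages are given as a description, with no test.

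Expression was measured on 26 Affymetrix arrays of lacrimal glands from male C57BL/6.NOD-Aec1Aec2 mice. The mice were aged 4 weeks (n = 4 arrays), 8 weeks (n = 6), 12 weeks (n = 6), 16 weeks (n = 5) or 20 weeks (n = 5). All groups carry the same pair of NOD-derived regions on the C57BL/6 background, Aec1 (Idd3, on chromosome 3) and Aec2 (Idd5, on chromosome 1), and received no treatment named in the labels. This strain develops a disease like Sjögren's syndrome, in which lymphocytes attack the glands that make tears and saliva, and the study sets the 5 ages for stages running from before disease (4 weeks) to loss of secretion (20 weeks). No control strain was analysed here, so age and disease cannot be told apart. The labels call the arrays biological replicates without saying whether each is 1 animal or a pool. The p-values rest on the spread between these samples alone, which may not be the spread between single animals.

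Proteins of this family share a compact fold held together by disulfide bonds, and most of their mouse genes lie in a cluster on chromosome 15. Several are classical surface markers of blood cells: Ly6a is the stem cell antigen Sca-1, Ly6g is the neutrophil antigen Gr-1 and Ly6c1 is found on endothelium, while Ly6e is widely expressed and is induced by type I interferon. Others have been studied in mouse skin and early lymphocytes (Ly6d), testis (Ly6k) and brain (Ly6h).

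Ly6f is the member whose level differed most between ages. The RefSeq promoter table, built on GRCm38.p6, holds a window of 250 bases before to 50 bases after its start, and the stretch upstream of the gene's first annotated base is shown here because it belongs to that member. It lies on the forward strand at chr15:75268171-75268371, outside the annotated gene, and the capitals mark the letters TATAAA.
Ly6f: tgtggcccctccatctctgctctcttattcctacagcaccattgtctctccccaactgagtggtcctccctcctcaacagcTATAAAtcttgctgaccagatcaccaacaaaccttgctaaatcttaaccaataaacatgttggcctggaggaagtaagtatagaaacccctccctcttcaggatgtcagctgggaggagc
The TATAAA letters begin 169 bases before the start used by the promoter table, which lies past the gene's first annotated base. Of the 32851 promoter windows in the table, 13.6% hold these letters on either strand. Other motifs were searched on both strands of the whole 300-base window. These were GAAANNGAA, part of the interferon-stimulated response element, which 8.56% of windows hold, TTCNNNGAA, as bound by STAT proteins (8.30%), and AGAACA, a single site of the androgen and glucocorticoid receptors (19.0%). None of these letters was in the Ly6f window. The windows of 3 of the 9 genes are in the table.

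The deposited values are on a log2 scale, on which array medians lay between 2.94 and 3.22, and levels are not compared here between probe sets. Means below 4.04, the median of those array medians plus 1 log2 unit, are called near background. The 6 lacrimal acinar marker genes with a probe set averaged between 8.47 and 11.83 on the 26 arrays, and salivary gland markers (4 genes) between 4.67 and 12.75, adipose markers (4 genes) between 3.37 and 9.01. A pair of arrays stood apart from the rest. Replicate 4 at 16 weeks had a standard deviation over all probe sets of 1.68 and replicate 1 at 20 weeks one of 1.36, where the remaining 24 arrays had 1.78 to 2.27. Set against arrays of the same age, their median r was 0.92 and 0.87, where elsewhere it was 0.956 to 0.986. The acinar markers averaged 8.47 and 8.91 on these arrays and 10.98 to 11.83 on the remaining 24. Results that rest on these arrays are given with and without them. In whole glands, fewer cells of a type and less RNA per cell cannot be told apart.

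Ly6f (probe set 1450562_at) encodes a GPI-anchored member of the family that has been studied little. It was low on the 4-week arrays and high on every later one. Its log2 expression at 4 weeks was 4.32, 4.05, 7.82 and 3.09 in replicates 1 to 4. At 8 weeks the lowest of the 6 arrays was at 11.34, the median at 11.98 and the highest at 12.26. No array at 8 weeks came near the 4-week values, and replicate 3 at 4 weeks stood well above the other 4-week arrays. At 12 weeks the lowest array was at 11.67, the median at 12.09 and the highest at 12.21. The 16-week arrays were at 12.10, 12.00, 11.97, 10.28 and 11.99, and the 20-week arrays at 9.35, 11.75, 11.13, 11.46 and 12.33. The lowest value at each of these later ages belonged to an array that stood apart, 16 weeks replicate 4 and 20 weeks replicate 1. Even so, the lowest later array (9.35) lay above the highest 4-week array (7.82). Groups that do not overlap were found for 6.03% of all probe sets between 8 and 4 weeks and 4.22% between 20 and 4 weeks.

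**Figure D1:**
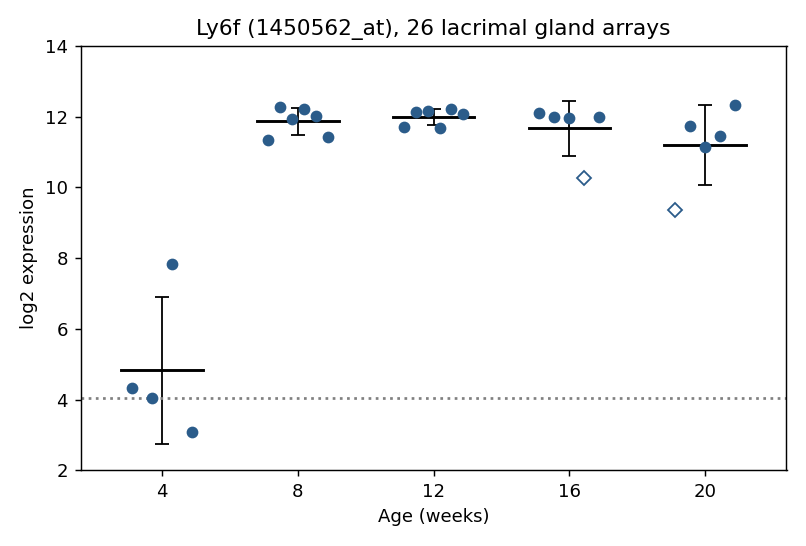
Log2 expression of Ly6f by age in weeks, 1 point per array, with open diamonds for the 2 arrays that stand apart, a thick bar at the mean of each age and thin bars of 1 SD. The dotted line marks 4.04, under which a mean is called near background; the 4-week arrays (mean 4.82) lie below all later arrays, whose age means lie between 11.20 and 11.99.

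The age means of Ly6f, with their SD, were 4.82 ± 2.07 (4 weeks, n = 4), 11.87 ± 0.39 (8 weeks, n = 6), 11.99 ± 0.24 (12 weeks, n = 6), 11.67 ± 0.78 (16 weeks, n = 5) and 11.20 ± 1.13 (20 weeks, n = 5). From the highest mean down, the order was 12, 8, 16, 20 and 4 weeks. Neighbours among the upper 4 ages overlapped and did not differ beyond their spread. The difference was 7.05 ± 0.63 log2 units (SE) between 8 and 4 weeks. Between 20 and 4 weeks it was 6.38 ± 0.65. Replicates 1, 2 and 4 at 4 weeks lay at or close to background, so both sizes are lower bounds and no fold is given. Both differences share the 4-week arrays, and both depend in size on replicate 3 at 4 weeks, without which they were 8.04 and 7.38. After 8 weeks the differences between successive ages were small: 0.12 ± 0.56 between 12 and 8 weeks, -0.32 ± 0.59 between 16 and 12 weeks and -0.46 ± 0.62 between 20 and 16 weeks. Without the 2 arrays that stand apart the difference between 20 and 16 weeks was -0.35 ± 0.60, and that between 16 and 12 weeks was 0.03 ± 0.54.

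Ly6e is a broadly expressed member; in the mouse placenta its protein is a receptor for syncytin-A, and it restricts the entry of several viruses. It has 2 probe sets on this array, which gave different patterns over age. Probe set 1453304_s_at was bright on every array. Its log2 expression was 12.74, 13.44, 13.02 and 14.22 on the 4-week arrays. At 8 weeks the lowest array was at 13.71, the median at 14.06 and the highest at 14.57, and at 12 weeks these were 13.49, 13.83 and 14.39. The 4-week replicate 4 lay among the 8-week arrays, so these ages overlapped. The 16-week arrays were at 13.69, 14.33, 13.35, 13.92 and 13.48, and the 20-week arrays at 11.37, 13.51, 13.56, 13.23 and 13.99. Replicate 1 at 20 weeks, which stands apart, was the lowest of all 26.

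No difference of this Ly6e probe set between successive ages passed the test. With limma over all 24675 probe sets kept, 8 against 4 weeks gave 0.72 ± 0.37 log2 units (95% interval -0.04 to 1.48, adjusted p = 0.398), with means of 14.08 ± 0.33 at 8 weeks and 13.35 ± 0.65 at 4 weeks (SD, n = 6 and 4). Between 20 and 16 weeks the difference was -0.62 ± 0.36 (adjusted p = 0.638), with means of 13.13 ± 1.02 at 20 weeks and 13.75 ± 0.39 at 16 weeks (SD, n = 5 each). It was -0.18 without 20 weeks replicate 1. Between 20 and 4 weeks it was -0.22 (adjusted p = 0.826), and without that array it was 0.22. The F test over the 5 ages gave an adjusted p of 0.159. With arrays weighted by their quality, the 8 against 4 week difference was 0.67 ± 0.14 with an adjusted p of 0.000819, in a setting whose weights gave a convergence warning and that called 52% of all probe sets in that comparison.

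The other Ly6e probe set, 1439773_at, lay close to background at 4 and 16 weeks. Its log2 expression was 3.81, 3.85, 3.87 and 3.83 at 4 weeks. At 8 weeks the lowest array was at 3.87, the median at 4.76 and the highest at 6.37. At 12 weeks these were 4.06, 5.32 and 6.30. The 4-week arrays were nearly identical, while the arrays at 8 and 12 weeks spread over more than 2 log2 units. The 16-week arrays were at 4.02, 3.80, 3.14, 3.24 and 3.81, and the 20-week arrays at 3.92, 4.06, 4.48, 5.49 and 5.62. All 16-week arrays lay below all 12-week arrays, though replicate 1 at 16 weeks (4.02) and replicate 4 at 12 weeks (4.06) nearly met; 3.69% of all probe sets did not overlap between these ages.

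This probe set passed the F test over the 5 ages in limma, with an adjusted p of 0.0413 and age means of 3.84, 4.95, 5.14, 3.60 and 4.71 at 4, 8, 12, 16 and 20 weeks. That call was lost with no filter, with the replicate number as a block, without the 2 arrays that stand apart, and when any 1 of 17 of the 26 arrays was left out. Its largest difference between successive ages, -1.54 ± 0.42 log2 units between 16 and 12 weeks, had an adjusted p of 0.0569. The adjusted p of that difference ranged from 0.0312 to 0.133 with 1 array left out, and it was 0.0351 with the filter at the 75th percentile. The difference was 1.11 ± 0.45 between 8 and 4 weeks (adjusted p = 0.285) and 1.11 ± 0.44 between 20 and 16 weeks (adjusted p = 0.626). The means at 4 and 16 weeks were near background, where an array cannot show how low a level is. A sign of RNA quality was set beside this probe set. The difference between actin control probe sets at the 3' and the 5' end of the transcript, which grows as RNA breaks down, averaged 4.56 ± 1.24 log2 units at 16 weeks and 3.69 ± 0.52 at 12 weeks (SD, n = 5 and 6). At 4 weeks, where the probe set was also low, the actin difference averaged 2.90, and at 8 and 20 weeks 2.63 and 3.89. Replicates 3 and 4 at 16 weeks, the lowest of all for this Ly6e probe set, had the highest actin differences of the 26 arrays, 5.60 and 5.71. Within ages the r of the probe set with the actin difference was -0.30 (-0.21 without the arrays that stand apart). The part of RNA quality in these values was not tested.

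**Figure D2:**
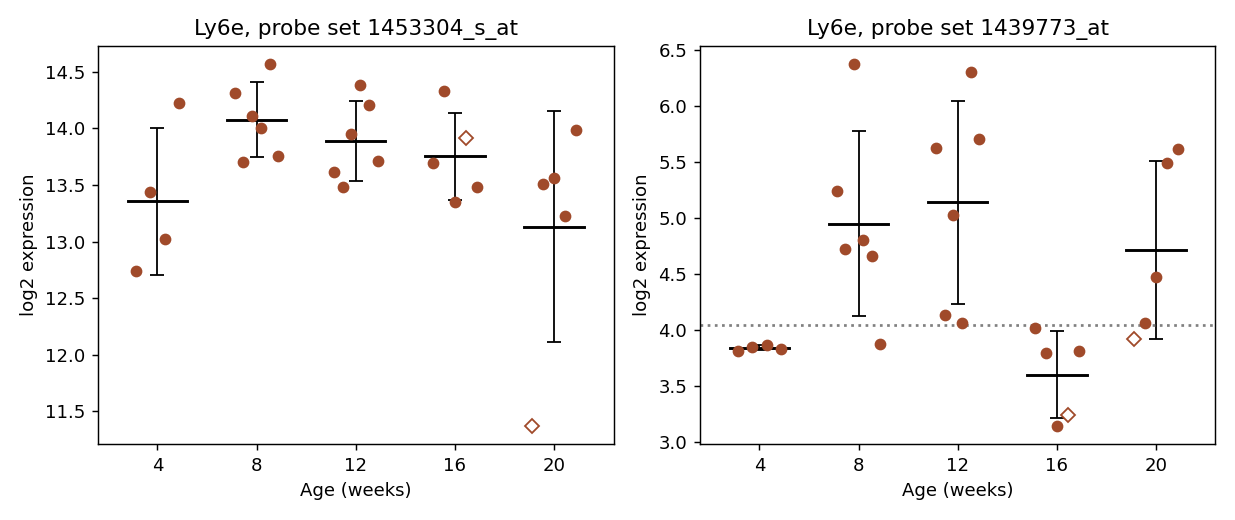
Log2 expression of Ly6e by age in weeks on each of its 2 probe sets, 1 point per array, with open diamonds for the 2 arrays that stand apart, a thick bar at the mean of each age and thin bars of 1 SD; the vertical scales differ. Age means of 1453304_s_at lie between 13.13 and 14.08 and those of 1439773_at between 3.60 and 5.14, with 16 weeks lowest on the second and 20 weeks lowest on the first; the dotted line marks 4.04.

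The 2 Ly6e probe sets disagreed at 16 weeks, where 1439773_at was at its lowest mean and 1453304_s_at was not. Deviations of the single arrays from the mean of their age had a Pearson r of 0.28 between them (Spearman rho 0.20, 26 arrays). In a permutation test of arrays within ages, with adjustment over the 6 pairs of the 4 member probe sets kept, this gave an adjusted p of 0.319 (0.517 for rho). Leaving out the 2 arrays farthest from the median on 1439773_at gave r = 0.29. Leaving out the 2 arrays that stand apart gave r = 0.14. Of the 6 pairs, 1 passed, Ly6i with 1453304_s_at (r = -0.59, adjusted p = 0.018; rho = -0.63, adjusted p = 0.00864). This pair had r = -0.44 and an adjusted p of 0.125 without the 2 arrays that stand apart. Ly6f did not pass with any of the others, with r of 0.25 for the dim Ly6e probe set, 0.14 for the bright one and -0.03 for Ly6i. Without the arrays that stand apart these were 0.10, -0.29 and 0.21, and again none passed.

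Ly6i, known from mouse bone marrow and macrophages, gave values close to the array medians throughout. Its probe set, 1425890_at, ranged from 3.11 to 3.71 over the 26 arrays, with age means of 3.52, 3.40, 3.37, 3.49 and 3.51 at 4, 8, 12, 16 and 20 weeks. All of these means are near background. The 8-week arrays (highest 3.47) lay just below the 4-week arrays (lowest 3.48), a difference of -0.12 ± 0.08 log2 units that did not pass the test (adjusted p = 0.437). The F test gave an adjusted p of 0.259.

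Ly6d, Ly6h and Ly6k were not above background on nearly all arrays, and their 4 probe sets did not pass the filter, so they were not tested. Ly6h (1422625_at) ranged from 2.31 to 2.66, below the array median on every array. One Ly6k probe set, 1454071_at, ranged from 2.51 to 2.81 and was likewise never above its array's median. Single arrays stood above this floor in the remaining 2 probe sets. Ly6d (1416930_at) was at 3.22 on 4 weeks replicate 1 and at 3.98 on 12 weeks replicate 4, and between 1.92 and 2.39 on the other 24 arrays. The other Ly6k probe set, 1452855_at, was at 3.28 on 12 weeks replicate 4. The same 12-week array held the highest value of the 1 B cell marker kept (7.02) and the highest level of Ly6g2, a cluster neighbour (3.29). Of the 7 B cell genes with a probe set, 6 had means near background.

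**Figure D3:**
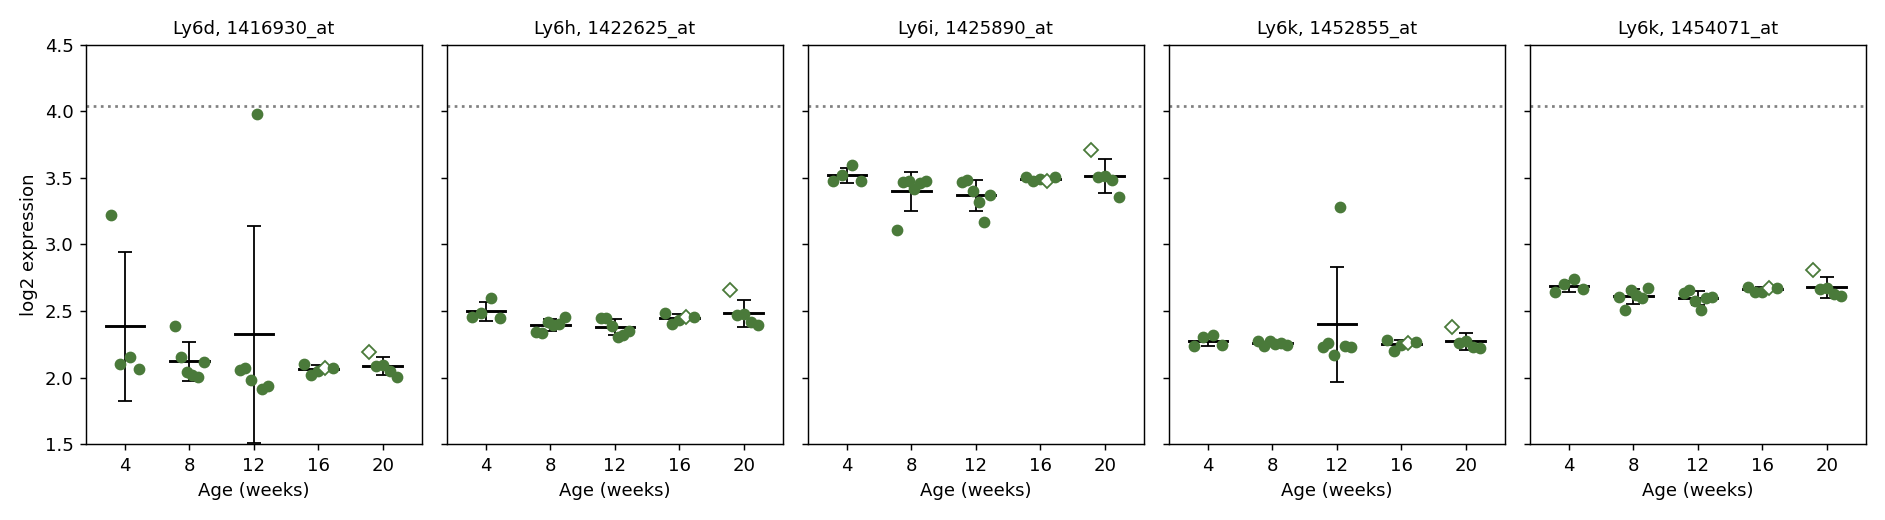
Log2 expression of the 5 probe sets of Ly6d, Ly6h, Ly6i and Ly6k by age in weeks, 1 point per array, with open diamonds for the 2 arrays that stand apart, a thick bar at the mean of each age and thin bars of 1 SD. All lie below 4.04 (dotted line); Ly6d reaches 3.98 and Ly6k (1452855_at) 3.28 on the same array at 12 weeks.

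Ly6f was left out of the counts of calls, since the family was chosen for its difference between ages. Of the other 3 member probe sets kept, none was called in limma at an adjusted p under 0.05 in any comparison between ages. Of all probe sets, 0.851% were called between 8 and 4 weeks, 0.0162% between 12 and 8 weeks, 1.66% between 16 and 12 weeks, 0.00405% between 20 and 16 weeks and 2.65% between 20 and 4 weeks. At an unadjusted p under 0.05, 1 of the 3 passed between 8 and 4 weeks (13.2% of all probe sets), 1 between 16 and 12 weeks (19.7%) and 1 between 20 and 16 weeks (7.65%). None passed between 12 and 8 weeks (4.78%) or 20 and 4 weeks (15.1%). By the F test 1 of the 3 was called, Ly6e (1439773_at), against 13.1% of all probe sets.

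The cluster on chromosome 15 was followed gene by gene in the order of the RefSeq annotation (GRCm38.p6), as a block chosen after values had been seen. From Ly6d to Ly6h it holds 22 protein-coding genes, of which 11 had a probe set of their own and 5 passed the filter. Ly6g2, the nearest protein-coding gene before Ly6f in that order, had age means between 2.45 and 2.80, near background at every age. With 10 further genes on either side, the block held 42 genes, 28 with a probe set and 7 kept. Taking the probe set with the highest mean for each gene, Ly6f alone of those 7 had age means spanning at least 1 log2 unit. Ly6e, in the same cluster, spanned 0.95 log2 units on that probe set and 1.54 on its dim one. Ly6f had been chosen for its difference between ages, so its place here was given in advance. The probe set shared by Ly6c1 and Ly6c2, genes of the cluster, did not enter this count. Its age means spanned 1.63 log2 units.

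Other genes of the Ly6/uPAR superfamily, whose proteins carry the same fold, were mostly at background. Of 33 such genes, 23 had a probe set and 3 were kept, Ly6g6e, Lypd6 and Cd59a. None of the 3 was called by limma in any comparison between ages or in the F test. At an unadjusted p under 0.05, 1 passed between 8 and 4 weeks, where 13.2% of all probe sets passed. Between 16 and 12 weeks 1 passed (19.7% of all probe sets), as did 1 in the F test (39%). With array weights, 2 were called between 8 and 4 weeks (52% of all probe sets), 1 between 16 and 12 weeks (20.3%) and 3 in the F test (73.7%). Ly6g6e averaged 4.98, 5.73, 5.18, 5.21 and 4.85 at 4, 8, 12, 16 and 20 weeks, and its difference between 8 and 4 weeks was 0.75 ± 0.34 (adjusted p = 0.354). Cd59a, which protects cells from complement, averaged 3.05, 3.57, 3.57, 3.73 and 3.51, near background throughout.

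The genes most like Ly6f over the 26 arrays, by Pearson's r among 12376 genes, were Cyp4a12a (r = 0.93), Ccl9 (0.91), Lyz1 (0.86), Fgl2 (0.86) and Cyp2j13 (0.86). Cyp4a12a and Cyp2j13 are cytochrome P450 enzymes that oxidise fatty acids, Ccl9 is a chemokine made by macrophages, Lyz1 is a lysozyme and Fgl2 is related to fibrinogen. Over the 22 arrays of 8 to 20 weeks r was 0.79, 0.77, 0.63, 0.58 and 0.73. Leaving out the 2 arrays that stand apart as well brought it to 0.52, 0.28, 0.13, 0.10 and 0.39. These values are a description of the ranking, and much of each r came from the gap between 4 weeks and the later ages.

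On the 4-week arrays these 5 genes did not follow Ly6f alike. Cyp2j13 was at 5.48, 4.46, 8.04 and 2.94 in replicates 1 to 4, the same order as Ly6f, with replicate 3 highest in both. Cyp4a12a was at 4.52, 4.67, 4.78 and 4.25 and Ccl9 at 6.33, 7.10, 7.51 and 7.35. Both were highest on replicate 3 as well, but by little. Lyz1 was at 9.24, 8.04, 7.29 and 7.87, with replicate 3 lowest, and Fgl2 at 5.76, 5.09, 5.31 and 5.41, with replicate 1 highest. Among later ages, Cyp4a12a averaged 11.43, 10.87, 10.09 and 9.14 at 8, 12, 16 and 20 weeks, while the age means of Ly6f over the same ages lay between 11.20 and 11.99.

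**Figure D4:**
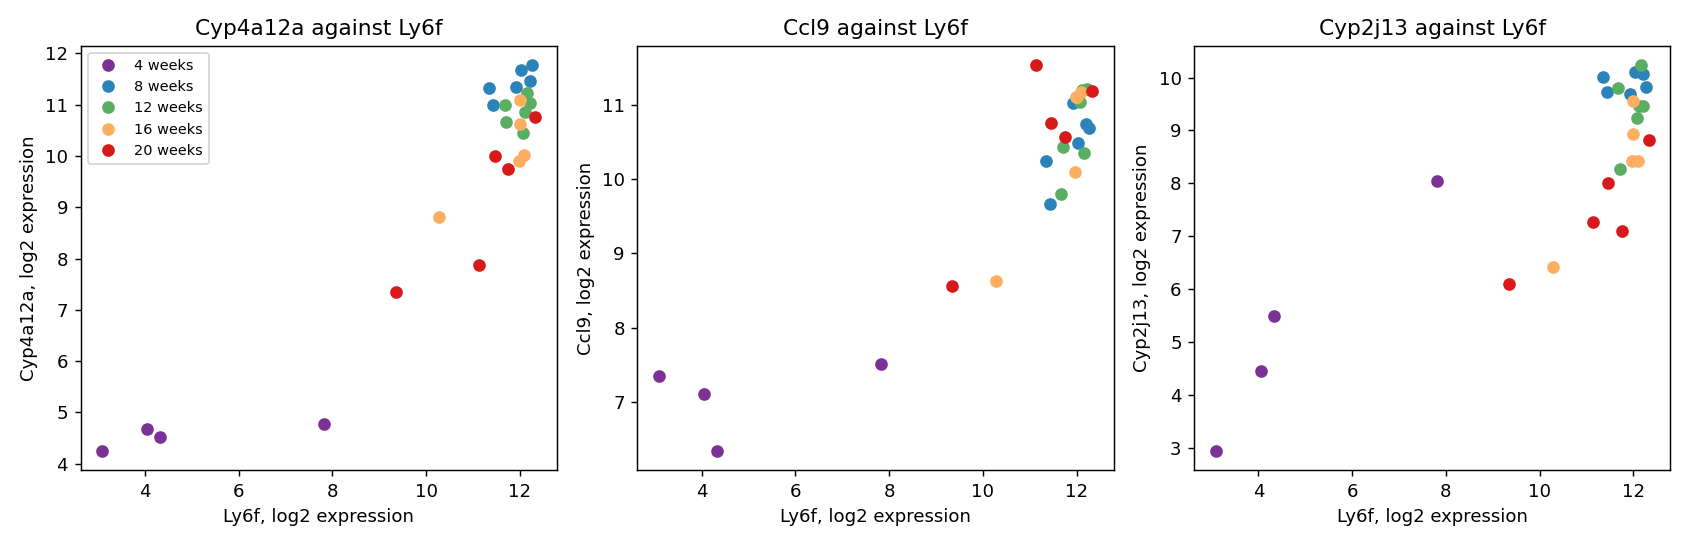
Log2 expression of Cyp4a12a, Ccl9 and Cyp2j13 (vertical axes) against Ly6f (horizontal axes), 1 point per array, coloured by age in weeks. The 4-week arrays lie apart on the left of each panel; 4 weeks replicate 3 (Ly6f 7.82) is the highest 4-week array for Cyp2j13 (8.04) and lies at 4.78 for Cyp4a12a.

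For Ly6e (1439773_at), the closest genes were Kdm2a (r = 0.77), a histone demethylase, Capg (0.76), which caps actin filaments, Mzt2 (0.72), Ptpn1 (0.71), a tyrosine phosphatase, and Alcam (0.71), an adhesion molecule. Over the 20 later arrays left without those that stand apart, r was 0.82, 0.74, 0.67, 0.74 and 0.70. For the bright Ly6e probe set, whose age means did not span 1 log2 unit, the same measure was taken after values had been seen. Its closest genes were H2-K1 (r = 0.92), Ptov1 (0.91), H2-D1 (0.90), Tcf25 (0.90) and Nucb1 (0.89). H2-K1 and H2-D1 encode the classical class I antigen-presenting molecules of the mouse. On the 20 later arrays r was 0.86, 0.87, 0.82, 0.74 and 0.71.

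Markers of other cells moved with age beside Ly6f. The monocyte and macrophage list (13 genes kept of 14) had array means of 6.00 to 6.89 at 8 weeks and 4.46 to 4.96 at 4 weeks. At 12, 16 and 20 weeks they were 5.86 to 6.56, 5.59 to 6.71 and 4.68 to 6.97. Between 8 and 4 weeks 4 of the 13 genes were called higher in limma, Lyz2, C1qa, C1qb and C1qc, and none lower. Of all probe sets, 0.851% were called in that comparison. At an unadjusted p under 0.05, 10 of the 13 passed, where 13.2% of all probe sets did. The median difference was 1.40 over the list and -0.05 over all probe sets tested. Lyz2, the macrophage lysozyme, averaged 10.75 at 8 weeks and 7.17 at 4 weeks (adjusted p = 0.000744). The complement gene C1qa averaged 8.31 at 8 weeks and 4.37 at 4 weeks (adjusted p = 0.00385). The part of this list in the values of Ly6f was not tested across ages.

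Among the other lists, Sbsn alone of 8 squamous epithelial genes kept was called higher between 8 and 4 weeks (0.851% of all probe sets were called). No kept gene of the type I interferon list (19 genes), the interferon gamma list (13 genes), the neutrophil, T cell, B cell or endothelial lists was called in that comparison in limma. At an unadjusted p under 0.05 these were 6, 1, 0, 1, 0 and 3 genes, where 13.2% of all probe sets passed. The neutrophil, T cell, B cell and endothelial lists had 2, 3, 1 and 8 genes kept. The type I interferon list averaged 4.83 ± 0.66 over the 8-week arrays and 4.13 ± 0.11 over the 4-week arrays (SD, n = 6 and 4). Ly6e, which that interferon is known to induce, is not in the list. All 8 T cell genes and all 11 neutrophil genes with a probe set had means near background.

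Within ages, deviations of Ly6f, Ly6e (1453304_s_at) and Ly6i from their age means were set against those of 8 marker lists, which leaves out the differences between ages. The T cell and neutrophil lists rest here on 3 and 2 genes kept, all with means near background. The B cell list rests on 1 gene. Of 24 pairs, 4 passed a two-sided permutation test of arrays within ages at an adjusted p under 0.05, and 2 passed without the 2 arrays that stand apart. Ly6f passed with no list on the 26 arrays. Its r with the monocyte and macrophage list was 0.41 (rho 0.34, adjusted p = 0.158), and -0.0018 without the arrays that stand apart. With 1 array left out, this r ran from 0.13 without 20 weeks replicate 1 to 0.77 without 4 weeks replicate 3, where it passed (permutation test, adjusted p = 0.0114). With the squamous list Ly6f had r = 0.37 (permutation test, adjusted p = 0.085), and 0.59 without 4 weeks replicate 3 (adjusted p = 0.0314). Without the arrays that stand apart that r was 0.11 (adjusted p = 0.589). It was 0.12 without the 2 arrays farthest from the median of the list. Ly6e had r = 0.49 with the type I interferon list (rho = 0.44, adjusted p = 0.0632, and 0.114 for rho). That r was 0.11 when the 2 arrays farthest from the median of the list were left out, and with 1 array left out it ran from 0.28 to 0.56 and passed in 3 of 26 cases.

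The pairs that passed were Ly6e with the T cell list (r = -0.76, adjusted p = 0.0156; rho = -0.64, adjusted p = 0.0313), Ly6e with the neutrophil list, Ly6i with the T cell list and Ly6i with the squamous list. Ly6e had r = -0.50 with the T cell list without the arrays that stand apart (adjusted p = 0.182) and -0.45 without the 2 farthest, and -0.12 under quantile normalization. With the neutrophil list its r was -0.41 (adjusted p = 0.0156), its rho -0.48 (adjusted p = 0.0719) and its r without the 2 farthest -0.42. It had r = -0.38 without the arrays that stand apart (adjusted p = 0.182), -0.20 under quantile normalization and -0.27 under median centring. Ly6i had r = 0.77 with the T cell list and rho = 0.82, each with an adjusted p of 0.00024, from the smallest p that the permutations can give. Without the 2 farthest arrays r was 0.72, under quantile normalization 0.55 and under median centring 0.50. Both Ly6i and that list were near background on these arrays.

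Ly6i with the squamous list had r = -0.56 (adjusted p = 0.0156) and rho = -0.42 (adjusted p = 0.191). It had r = -0.60 without the 2 farthest arrays, and under quantile normalization r was 0.0360. The spread of each array over all probe sets moved with the same members. Within ages its r was 0.71 with Ly6e and -0.70 with Ly6i (0.55 and -0.77 without the arrays that stand apart). With Ly6f it was 0.29, and -0.33 without those arrays. The within-age r with the actin difference was -0.48 for Ly6e, 0.11 for Ly6i and -0.27 for Ly6f. Without those arrays it was -0.45, -0.02 and -0.02. The parts of array spread and of RNA quality in these pairs were not tested.

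**Figure D5:**
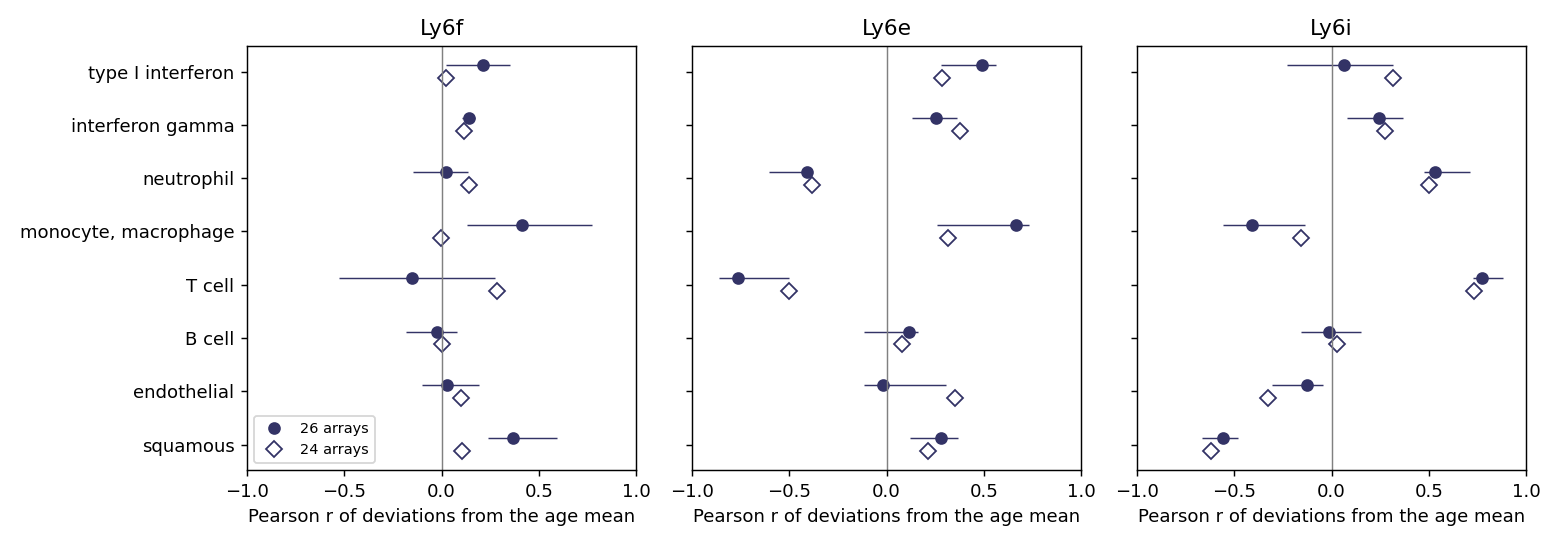
Pearson r, within ages, of Ly6f, Ly6e (1453304_s_at) and Ly6i with the array means of 8 marker lists, for 26 arrays (filled points, with a line over the range when 1 array is left out) and for the 24 arrays without those that stand apart (open diamonds). Ly6i with the T cell list is at 0.77 and 0.73, Ly6e with the T cell list at -0.76 and -0.50, and Ly6f lies between -0.15 and 0.41 on 26 arrays. The T cell, neutrophil and B cell lists hold 3, 2 and 1 genes kept.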

How the data were processed

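The authors deposited log2 expression values for 45101 probe sets. The submitters' processing notes name RMA and GCRMA; which of them was used is not stated there, nor are scan dates. Detection calls were not used. Precision is limited by how many arrays there are. Symbols were taken from the platform annotation, 34958 with 1 symbol, 932 with several and 9211 not listed; 64 control probe sets were left out, and 24675 lay above their array's median on at least 4 arrays. Age means were fitted with limma 3.58.1 (R 4.3.3) over all 26 arrays, with contrasts later minus earlier age and Benjamini-Hochberg adjustment over all probe sets kept. Permutations (100000) moved arrays within ages. Members, lists and tests were chosen with earlier results of these data known. All members were named, and up to 4 genes per list and the 5 most like genes; Ly6g6e, Lypd6, Cd59a, the cluster neighbours and the genes like 1453304_s_at were named after their values were seen. Lists represent a gene by its probe set of highest mean. Same-numbered arrays of different ages were not paired: over 47 pairs, r of their deviations ran from -0.51 to 0.47. Alternatives were quantile normalization, median centring, other filters, 1 probe set per gene, array weights, a replicate block, only the ages compared, and leaving out arrays.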

Additional observations from a re-analysis of the deposited data

Results flagged for a closer look

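Within groups of 4 to 6 arrays, 6 of the 40 combinations of a member probe set and an age had an array far from the others of its age by Dixon's criterion, which chance meets in about 1 in 20 groups. Ly6f was at 10.28 on 16 weeks replicate 4, and Ly6e (1453304_s_at) at 11.37 on 20 weeks replicate 1; these are the 2 arrays that stand apart over all probe sets. Ly6d was at 3.22 on 4 weeks replicate 1 and at 3.98 on 12 weeks replicate 4. Ly6k (1452855_at) was at 3.28 on that same 12-week array. Ly6i was at 3.11 on 8 weeks replicate 1, below the other 8-week arrays. The last 4 values lie near background.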

How the results depend on the processing

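Differences of Ly6f between 8 and 4 weeks ran from 6.59 to 7.90 over the alternatives and from 6.47 to 8.04 with 1 array left out. Counts of members here include Ly6f, from whose calls nothing is read. Between 20 and 4 weeks the count was 0 with only the arrays compared, from a fit on fewer arrays. Between 16 and 12 weeks it was 1, Ly6e (1439773_at), with the 75th percentile filter or array weights, and 0 to 1 with 1 array left out (1 without 8 weeks replicate 3 or 6, 12 weeks replicate 2, or 20 weeks replicate 1 or 5). The F test count was 1 with no filter, with 1 probe set per gene, with the replicate block and without both arrays that stand apart, and 1 to 2 with 1 array left out. Array weights, whose estimation gave a convergence warning and which called 52% of all probe sets between 8 and 4 weeks and 73.7% in the F test, gave 4 members in each, and, in settings added after seeing the data, 2 superfamily genes between 8 and 4 weeks, 1 between 16 and 12 weeks and 3 in the F test; the cause was not tested. The replicate block, for numbers that do not pair the arrays, changed no other member count. Of the 24 within-age pairs, 4 passed; 1 passed after quantile normalization, 2 without both arrays that stand apart, and 1 to 7 with 1 array left out (1 without 20 weeks replicate 1, 7 without 4 weeks replicate 1). Ly6i with the squamous list turned to r = 0.0360 after quantile normalization. Signals near background limit what could be measured of Ly6d, Ly6h, Ly6i and Ly6k, and of the dim Ly6e probe set at 4 and 16 weeks.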

Other observations

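The probe set that Ly6c1 shares with Ly6c2 (1421571_a_at) lies outside the 8 described above, and its signal cannot be assigned to either gene. It was at 6.64, 4.74, 5.45 and 6.00 on the 4-week arrays, and averaged 5.71, 7.34, 7.17, 6.98 and 6.80 at 4, 8, 12, 16 and 20 weeks. The difference between 8 and 4 weeks was 1.63 ± 0.54 log2 units, higher in 5 of 6 arrays at 8 weeks than on any array at 4 weeks, and did not pass the test (limma, adjusted p = 0.177).

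A few relatives of the family that did not pass the filter stood out on single arrays, chosen here after their values were seen. Psca, a prostate and bladder epithelial antigen, was at 5.11 on 20 weeks replicate 1, an array that stands apart. Slurp1, a secreted member made by keratinocytes, was at 3.68 on 4 weeks replicate 1, the array with the higher 4-week value of Ly6d. Ly6g6d was at 3.57 on 8 weeks replicate 4, where Ly6g6e also had its highest value, 6.78.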
